A study of Homo sapiens with 4 samples.

Results

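The HSP70 family is described here through 10 of the 14431 genes listed in a deposited RNA-seq table. They are HSPA6, HSPA1A, HSPA1B, HSPA8, HSPA5, HSPA9, HSPA14, HSPA4, HSPA4L and HSPH1. The genes were selected by symbol, and the family was chosen because HSPA6 was known to have one of the lowest values relative to control in this same comparison. All values of the comparison are therefore given for the members as a description, with no p-value. The 4 RNA-seq libraries came from the gastric cancer cell line HGC27, which is human and is labelled WT for genotype in every library. The siAARS1 group (n = 2) received siRNA against AARS1, the cytosolic alanyl-tRNA synthetase, and the control group (n = 2) is called control in the titles and NC in the descriptions, with no account of what it received. Both groups were kept in glucose-free DMEM with 25 mM lactate, for 24 h per the labels, while the text of the study gives another duration. No library without lactate was compared, and an AARS1 knockdown in 1 cell line with 1 harvest time is all that the groups cover.

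HSP70 proteins are chaperones that hold exposed stretches of unfolded protein and release them in a cycle of ATP binding and hydrolysis. J-domain proteins (the DNAJ families) bring clients and start hydrolysis, and nucleotide exchange factors, among them the HSP110 proteins, reset the cycle. Some members are present in all cells, others are induced when heat shock factor 1 binds heat shock elements in their promoters, and separate members serve the endoplasmic reticulum (ER) and the mitochondrion. Tumour cells commonly carry high levels of several of them.

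Listed genes took 30653210 to 33522573 reads per library, so that 1 read equalled 0.0293 to 0.0324 CPM (read counts scaled to library size). The upper limit that 0 reads allow, 3 reads, was 0.0880 to 0.0971 CPM, and covers counting error only. AARS1, listed as AARS, was at 428 and 417 CPM in the controls against 292 and 298 CPM in siAARS1, which is 69.7% of control. The log2 fold change of AARS was -0.52, and -0.28 once corrected for GC content and length as described below. Of the cell type markers looked up, 1 of 3 immune genes, 0 of 2 endothelial genes and 0 of 5 gastric lineage genes were listed. The 2 listed of 5 epithelial genes (CDH1 and KRT8) summed to 27.0 to 27.3 CPM in control and 6.14 to 7.29 CPM in siAARS1. The summed level of the 3 listed mesenchymal genes, out of 4, was 5150 to 5209 CPM in control and 4704 to 4814 CPM in siAARS1, and that of the 4 fibroblast genes was 2805 to 2906 and 2098 to 2174 CPM. The single immune gene, CD68, was at 0.763 to 1.10 CPM in control and 0.486 to 0.782 CPM in siAARS1. In bulk RNA, fewer cells of a kind and less RNA per cell cannot be told apart, and the part of these markers in the results below was not tested.

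Grouped by role, the members lay on either side of control, and these roles also differed in GC content and transcript length, as given below. HSPH1 is placed with the HSP110 members here but is also heat-inducible. The stress-inducible cytosolic members HSPA6, HSPA1A and HSPA1B were lower in siAARS1, and the 3 HSP110 members HSPA4, HSPA4L and HSPH1 were higher. Between them, constitutive HSPA8, mitochondrial HSPA9 and ribosome-associated HSPA14 were moderately higher and HSPA5 of the ER was slightly lower. In a limma fit across the table, 6 members were called higher and 4 lower at an adjusted p of 0.05. Of all 14199 genes tested, 70.7% were called, 32.6% as higher and 38.0% as lower, and higher genes made up 46.2% of those called (28.8% with median scaling, 37.0% with quantile normalization, 50.3% with edgeR and TMM and 53.8% with DESeq2). In no member did the CPM values of the groups overlap, as in 85.1% of all genes tested. Since the same contrast chose the family, these counts only describe it.

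**Figure D1:**
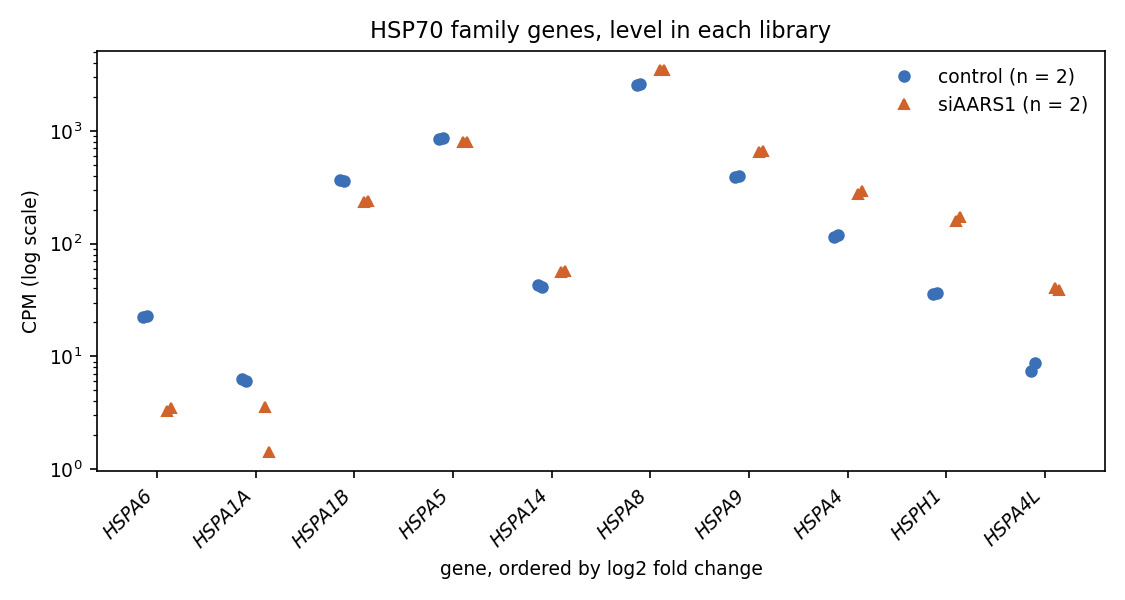
Level of each of the 10 HSP70 family genes (horizontal axis, ordered by log2 fold change) in CPM on a log scale (vertical axis), with 1 point per library for control (circles, n = 2) and siAARS1 (triangles, n = 2). The points of the groups do not overlap for any gene, with HSPA6 at 22.3 and 22.6 CPM against 3.27 and 3.52 CPM and HSPA4L at 7.39 and 8.70 CPM against 40.7 and 38.6 CPM.

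HSPA6 (ENSG00000173110) encodes a cytosolic HSP70, strictly inducible in most cells, that is used as a sensitive marker of strong proteotoxic stress. The gene has 1 exon and lies on chromosome 1 at chr1:161524540-161526910 on the plus strand (GENCODE v29, GRCh38). It was at 22.3 and 22.6 CPM in control, from 760 and 717 reads, and at 3.27 and 3.52 CPM in siAARS1, from 101 and 117 reads. Both siAARS1 libraries thus sat at a narrow low level, 15.1% of control or 6.61-fold lower. The log2 fold change of CPM + 1 was -2.42 (SE 0.101), the second lowest of 14199 genes after TXNIP (-2.77) and before ELF3 (-2.25), and these ranks restate how the family was chosen. Among the 11076 genes with at least 5 CPM in control, HSPA6 had rank 5 from the lowest by the ratio of mean CPM, which involves no pseudocount.

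The letters upstream of HSPA6 are shown because heat shock elements are the textbook route of its induction. A heat shock element is built of the unit GAA and its reverse complement TTC in alternation with a gap of any 2 bases, and a pair of units reads GAANNTTC or TTCNNGAA. The 250 bases before the RefSeq start of HSPA6 (GRCh38.p14, chr1:161524290-161524539, plus strand) hold 1 site of 3 units from -74 to -62, within which both 2-unit forms overlap, and 1 separate 2-unit match from -180 to -173. Capitals mark these matches, positions count back from the RefSeq start, and both strands were searched.
HSPA6: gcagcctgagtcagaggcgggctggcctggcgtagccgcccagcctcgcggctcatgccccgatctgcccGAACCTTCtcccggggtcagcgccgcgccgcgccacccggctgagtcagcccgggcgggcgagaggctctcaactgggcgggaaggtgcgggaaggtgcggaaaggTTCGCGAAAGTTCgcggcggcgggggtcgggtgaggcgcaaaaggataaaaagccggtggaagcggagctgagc
Of 35116 such upstream windows in the RefSeq table, 0.441% held a 3-unit site and 11.6% held a 2-unit match. A match describes letters and does not show that a factor was bound in these cells.

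HSPA1A and HSPA1B encode nearly the same inducible cytosolic HSP70 from neighbouring 1-exon genes on chromosome 6, at chr6:31815464-31817946 and chr6:31827735-31830255, both on the plus strand. HSPA1B carried most of the reads, at 370 and 357 CPM in the controls against 236 and 239 CPM in siAARS1. It was at 65.4% of control, with a log2 fold change of -0.61 (SE 0.0365). HSPA1A was at 6.36 and 6.08 CPM in control (217 and 193 reads) and at 3.59 and 1.41 CPM in siAARS1 (111 and 47 reads). The siAARS1 libraries differed far more from each other than the control libraries did, and the log2 fold change of -1.12 (SE 0.193) of HSPA1A ran from -1.58 to -0.65 with 1 library left out: -1.58 without siAARS1 replicate 1 and -0.65 without siAARS1 replicate 2. HSPA1A was not called under DESeq2 (-1.26).

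The split of reads between HSPA1A and HSPA1B depends on how shared sequence was counted, which the sources used here do not give. Their coding sequences were identical at 1919 of 1923 bases (99.8%), and 72.6% of the 50-base words of the HSPA1A transcript also occurred in other genes, all of those in HSPA1B. HSPA1A made up 1.69% and 1.67% of the pair in control and 1.499% and 0.588% in siAARS1, and its value is uncertain for this reason. The sum of the pair does not depend on the split: it was 376 and 363 CPM in control and 240 CPM in both siAARS1 libraries, 64.97% of control. It would still be too low if shared reads were left out of both genes. Of the 100-base words, 69.9% in HSPA1A and 72.7% in HSPA1B occurred in other genes. The same limit holds for the levels and shares below that include the pair. HSPA6 shared 45.5% of its 50-base words and 27.6% of its 100-base words with 1 other gene, HSPA7, which was not listed. Its coding sequence was 80.7% identical to that of HSPA1A and 80.6% to that of HSPA1B, with no shared 50-base word with either.

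The upstream windows of the pair are shown beside each other because they are near copies, 93.6% identical over 250 bases. Each holds 1 2-unit heat shock match (capitals), from -106 to -99 in HSPA1A and from -105 to -98 in HSPA1B, and no site of 3 units. Each full window also has 2 CCAAT boxes and 1 TATAAA box. The HSPA1A stretch printed below ends at -80. Its CCAAT box from -69 to -65 and its TATAAA box from -30 to -25 are therefore not in the printed letters. Of all windows, 32.0% hold at least 1 CCAAT box and 10.7% at least 1 TATAAA box. The stretches printed end before the first exon base of GENCODE v29, and are chr6:31815293-31815463 for HSPA1A and chr6:31827488-31827734 for HSPA1B, both on the plus strand of GRCh38.p14 with RefSeq starts.
HSPA1A: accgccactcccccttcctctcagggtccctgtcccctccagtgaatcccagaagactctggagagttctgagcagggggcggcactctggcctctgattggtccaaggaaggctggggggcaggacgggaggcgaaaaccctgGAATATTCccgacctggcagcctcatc
HSPA1B: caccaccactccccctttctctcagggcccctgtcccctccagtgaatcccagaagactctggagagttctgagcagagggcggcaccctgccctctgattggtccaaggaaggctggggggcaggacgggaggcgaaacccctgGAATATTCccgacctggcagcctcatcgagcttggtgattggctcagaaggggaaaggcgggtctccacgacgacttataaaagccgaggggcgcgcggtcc
The matched letters are the same in both windows. HSPA1A and HSPA1B were listed at very different levels, a split that depends on how shared sequence was counted.

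Together HSPA1A, HSPA1B and HSPA6 summed to 398 and 386 CPM in the controls against 243 and 244 CPM in siAARS1, 62.1% of control. HSPA6 was a small part of this sum, at 5.60% and 5.86% in control and 1.35% and 1.44% in siAARS1. Relative to constitutive HSPA8, the inducible sum had a mean of 15.2% (SD 0.458) in control and 7.04% (SD 0.0605) in siAARS1, n = 2 each.

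HSPA8 encodes the constitutive cytosolic HSC70, which also uncoats clathrin vesicles and feeds chaperone-mediated autophagy. Its 9 exons lie on the minus strand at chr11:123057489-123063230. It was at 2560 and 2588 CPM in the controls against 3473 and 3443 CPM in siAARS1, 1.34-fold higher, with a log2 fold change of 0.43 (SE 0.0348). Under median scaling its value was 0.21. HSPA8 was by far the most abundant member in every library, at 58.2% and 58.3% of the family's CPM in control and 61.0% and 60.4% in siAARS1. None of its 100-base words occurred in another annotated gene, while 15.4% of its 50-base words did, in 10 genes led by the pseudogene HSPA8P1.

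The RefSeq window of HSPA8 holds 2 sites of 3 heat shock units, and among the 9 members with a window only HSPA6 also had such a site. The window lies before a RefSeq start that is inside the GENCODE v29 span of HSPA8 and overlaps exons annotated there, so it is upstream of only some transcripts of the gene. The sites are shown as 30 bases each, with the units in capitals, to set beside HSPA6, which differed from control in the opposite direction. The first is chr11:123062346-123062375 (units from -230 to -218) and the second chr11:123062171-123062200 (units from -55 to -43), both read on the minus strand of GRCh38.p14.
HSPA8 site 1: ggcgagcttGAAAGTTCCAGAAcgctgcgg
HSPA8 site 2: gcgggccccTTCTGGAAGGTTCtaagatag
Across the table, 47 tested genes had a 3-unit site upstream, HSPA6 and HSPA8 among them. Of these, 14 were called higher (29.8%) and 20 lower (42.6%), with a median log2 fold change of -0.09. Of the 9652 tested genes with any upstream window, 74.5% were called, against 72.3% of these 47, and the median was -0.05. By direction, 34.6% of the 9652 were called higher and 39.8% lower.

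HSPA5 encodes BiP, the HSP70 of the ER lumen and a main target of the unfolded protein response. The gene has 8 exons on the minus strand at chr9:125234853-125241330. Its level was 852 and 859 CPM in the controls against 792 and 795 CPM in siAARS1, 92.7% of control. With a log2 fold change of -0.11 (SE 0.0335) it had the smallest difference in the family and missed the threshold under quantile normalization (-0.057), edgeR with TMM (-0.071) and DESeq2 (-0.057), while median scaling gave -0.33. Upstream of its RefSeq start, at chr9:125241344-125241593 (minus strand, GRCh38.p14), the window is shown for its ER stress element, the sequence through which the unfolded protein response acts. It has 4 CCAAT boxes and 1 complete ER stress element from -66 to -48 (capitals), a CCAAT box and CCACG with a gap of 9 bases, which 0.0740% of all windows hold.
HSPA5: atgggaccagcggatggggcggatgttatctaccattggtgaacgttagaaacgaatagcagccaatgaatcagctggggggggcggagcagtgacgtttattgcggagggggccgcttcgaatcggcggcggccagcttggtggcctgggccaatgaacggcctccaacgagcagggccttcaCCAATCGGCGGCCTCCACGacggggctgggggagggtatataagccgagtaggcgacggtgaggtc
No heat shock match of either length was found in this window.

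HSPA9 encodes mortalin, the mitochondrial HSP70 that pulls precursor proteins through the inner membrane and takes part in iron-sulphur cluster assembly. It has 17 exons on the minus strand at chr5:138553756-138575724. HSPA9 was at 389 and 399 CPM in the controls against 655 and 656 CPM in siAARS1, 1.66-fold higher, with a log2 fold change of 0.73 (SE 0.0345). HSPA14, the HSP70 of the ribosome-associated complex (chr10:14838164-14871741, plus strand, 14 exons), was at 42.6 and 41.4 CPM in the controls against 55.6 and 57.1 CPM in siAARS1. Its difference, 1.34-fold with a log2 fold change of 0.41 (SE 0.0536), came to 0.195 under median scaling.

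The HSP110 members HSPA4, HSPA4L and HSPH1 are large relatives of HSP70 that act mainly as its nucleotide exchange factors and hold unfolded clients. HSPA4 (chr5:133051962-133106449, plus strand, 19 exons) was at 115 and 120 CPM in the controls against 275 and 291 CPM in siAARS1, 2.41-fold higher with a log2 fold change of 1.26 (SE 0.0414). HSPA4L (chr4:127781821-127840733, plus strand, 19 exons), a relative best known from testis, was at 7.39 and 8.70 CPM in control, from 252 and 276 reads, and at 40.7 and 38.6 CPM in siAARS1. That was 4.93-fold higher, with a log2 fold change of 2.17 (SE 0.0851), and 0.73 once corrected for GC content and length.

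HSPH1 (chr13:31134974-31162388, minus strand, 18 exons), the heat-inducible HSP110, was at 35.5 and 36.6 CPM in the controls against 160 and 172 CPM in siAARS1, 4.602-fold higher. Its log2 fold change was also 2.17 (SE 0.0490), and 1.25 once corrected. HSPH1 and HSPA6 are both counted as heat-inducible, and their levels lay on opposite sides of control in every siAARS1 library. The 3 HSP110 members shared 62.4% to 66.1% of their coding bases, and HSPA4 and HSPH1 had no 50-base word in common with any other gene. The RefSeq windows of HSPA4 and HSPH1 held no heat shock match, and 1 of 3 windows of HSPA4L held a single 2-unit match. That HSPA4L window, at chr4:127782072-127782321, starts inside the GENCODE span of the gene, and the HSPA4 window overlaps the first GENCODE exon. RefSeq windows were matched for 9 of the 10 members, and the window of HSPA9, which lies within the GENCODE gene, held no heat shock match either.

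**Figure D2:**
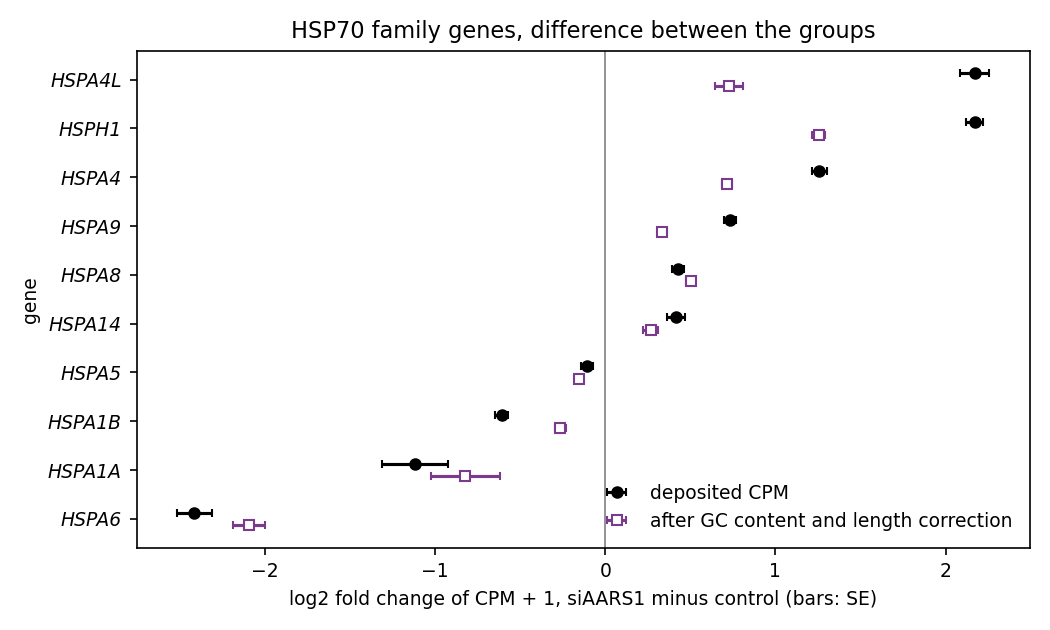
Log2 fold change of CPM + 1 (siAARS1 minus control, horizontal axis) of the 10 genes (vertical axis), from the deposited CPM (filled circles) and corrected for GC content and length (open squares). Bars are 1 SE from limma, whose variance draws on all genes tested, with 2 libraries per group. HSPA6 stays lowest at -2.42 and -2.10, and HSPA4L moves from 2.17 to 0.73.

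The composition of the family differed with these changes. All 10 members summed to 4400 and 4440 CPM in the controls against 5694 and 5698 CPM in siAARS1, 1.29-fold higher. As a share of the listed CPM this was 0.448% and 0.452% in control and 0.574% in both siAARS1 libraries. The HSP110 members together went from 158 and 165 CPM to 475 and 502 CPM (3.02-fold) and from a mean of 3.66% to a mean of 8.58% of the family's CPM. The inducible members went from a mean of 8.87% to a mean of 4.28% of it.

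**Figure D3:**
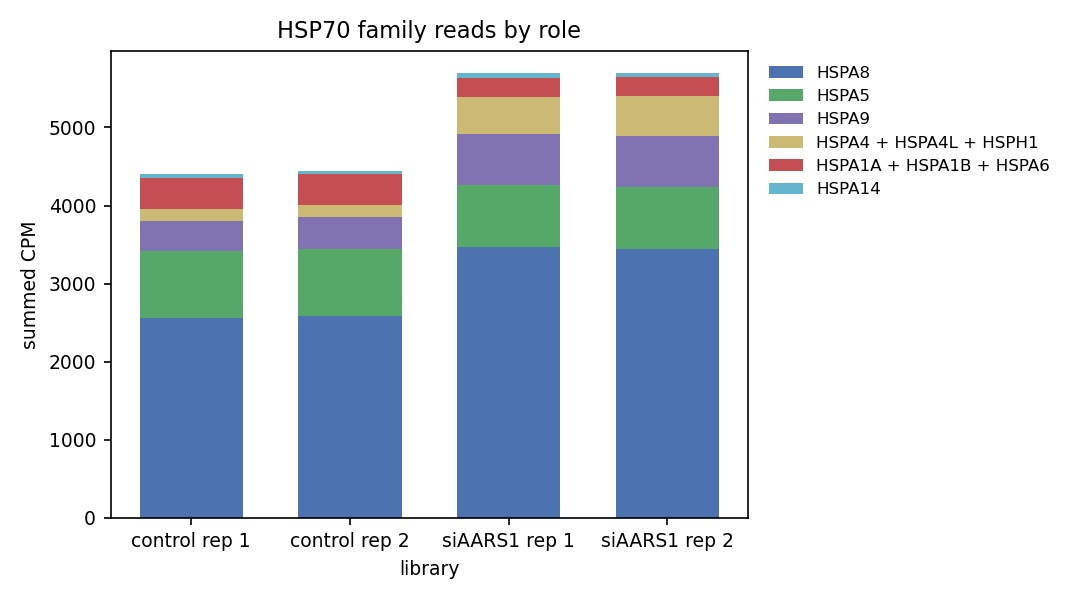
Summed CPM of the 10 HSP70 family genes (vertical axis, from 0) in each of the 4 libraries (horizontal axis), stacked by role. The total is 4400 and 4440 CPM in the controls against 5694 and 5698 CPM in siAARS1, with HSPA8 as the largest block in all 4 libraries and a wider HSP110 block in siAARS1.

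CPM counts reads and grows with transcript length, so levels were compared between members as CPM per kb of the longest GENCODE v29 transcript. In control the order was HSPA8 (1045 CPM per kb), HSPA5 (219), HSPA1B (144), HSPA9 (83.4), HSPA4 (24.4), HSPA14 (22.1), HSPA6 (9.47), HSPH1 (6.94), HSPA1A (2.51) and HSPA4L (0.746). No neighbours in this order overlapped between their replicates. In siAARS1 the order on the same scale was HSPA8 (1404 CPM per kb), HSPA5 (203), HSPA9 (139), HSPA1B (94.3), HSPA4 (58.6), HSPH1 (31.9), HSPA14 (29.6), HSPA4L (3.67), HSPA6 (1.43) and HSPA1A (1.008), and the last pair overlapped. HSPA6 thus moved from above HSPH1 and HSPA4L to below both. The order depends on the length used: with the median transcript length HSPA9 took second place in both groups, and HSPH1 stood above HSPA6 in control too.

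The members differed in base composition and length along the same line as their changes. GC content of the longest transcript was 58.4% in HSPA6, 59.7% in HSPA1A and 58.7% in HSPA1B, from 43.1% to 47.0% in HSPA8, HSPA5, HSPA9 and HSPA14, and 42.5% in HSPA4, 40.0% in HSPH1 and 38.1% in HSPA4L. Over the 10 members Spearman's rho between log2 fold change and GC content was -0.90, and over 13819 annotated genes tested it was -0.65. With transcript length rho was 0.77 over the members and 0.30 over all. These points share their 4 libraries, and the correlations are descriptions.

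Genes of the same make-up as the members show where each stood. Of 173 protein-coding genes with 1 exon and GC content over 55%, as in HSPA6, HSPA1A and HSPA1B, 71.7% were called lower and the median log2 fold change was -0.35. Genes of over 1 exon and GC content over 55% (3657 genes) had 69.9% called lower and a median of -0.29. Among 4585 protein-coding genes with GC content under 45%, 70.9% were called higher, with a median of 0.54. HSPA6 (-2.42), HSPA1A (-1.12) and HSPA1B (-0.61) were below the median of GC-rich 1-exon genes. Of the members with GC content under 45%, HSPA4L and HSPH1 (2.17 each), HSPA4 (1.26) and HSPA9 (0.73) were above the median of such genes and HSPA14 (0.41) was below it. HSPA8 and HSPA5 fell in neither class.

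A correction that removed the smooth trend of each library with GC content and length of the longest transcript reduced most of the differences. No other transcript length was tried in it. For HSPA4L the longest transcript has 10790 bases, while the median transcript length is 2639. It also removes any true change that follows these properties. HSPA6 was then at -2.10 (SE 0.0946), HSPA1A at -0.82 (SE 0.203) and HSPA1B at -0.26 (SE 0.0310). On the same log2 scale HSPA4 was at 0.71 (SE 0.0301), HSPA4L at 0.73 (SE 0.0803) and HSPH1 at 1.25 (SE 0.0372). HSPA8 was at 0.50 (SE 0.0245), HSPA9 at 0.34 (SE 0.0258), HSPA14 at 0.27 (SE 0.0446) and HSPA5 at -0.15 (SE 0.0241). The members called were again 6 higher and 4 lower, against 32.7% and 33.4% of the 13819 genes with an annotation. The median of the members was 0.42 before and 0.30 after it, beside -0.05 and -0.01 for all genes. After correction rho with GC content was -0.87 over the members and 0.05 over all genes. The part of GC content and length in the members' values beyond this correction was not tested.

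**Figure D4:**
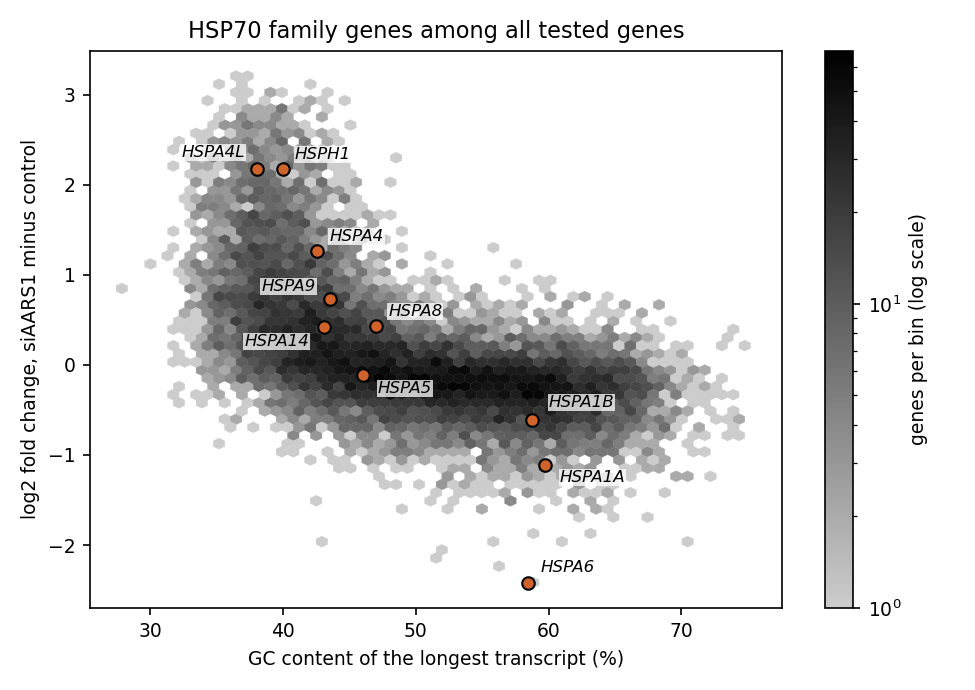
Log2 fold change (siAARS1 minus control, vertical axis) against GC content of the longest transcript in percent (horizontal axis) for 13819 genes, as bins shaded by gene number on a log scale, with the 10 HSP70 family genes as orange points. The cloud declines with GC content (rho -0.65), and HSPA6, at 58.4% GC and -2.42, lies at its lower edge, below ELF3 at -2.25.

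The genes whose pattern over the 4 libraries was nearest to that of HSPA6 were found by the root mean square difference of centred log2(CPM + 1), among 11075 others with at least 5 CPM in control. They were ELF3 (0.113), an epithelial transcription factor, C11orf53 (0.172), TXNIP (0.179), an arrestin that restrains glucose uptake and is itself sensitive to glucose, EMP1 (0.246), a membrane protein of epithelia, and NGFR (0.259), the low-affinity neurotrophin receptor. ELF3 was at 6.48 and 7.44 CPM in the controls against 0.550 and 0.812 CPM in siAARS1. TXNIP was at 73.9 and 74.5 CPM in the controls against 9.62 and 10.4 CPM in siAARS1. None of the 5 is a chaperone, and with 4 libraries in 2 groups the measure mostly compares the size of the difference between the groups.

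The other genes of the HSP70 machinery were taken by role, with earlier results of these data known. Each list is set beside the 32.6% of genes called higher and 38.0% called lower. The genes named from a list were picked by their change in this same contrast, so their adjusted p-values only describe them. Of 6 other listed HSP70 and HSP110 genes, 1 rose and 4 fell (median log2 fold change -0.25). HSPA13, a microsomal HSP70 relative, rose from a mean of 13.8 to 36.4 CPM (log2 fold change 1.34, SE 0.0754, adjusted p = 7.7e-13), and was at 0.30 once corrected for GC content and length. HSPA2, best known from male germ cells, fell from 11.2 to 4.64 CPM (-1.11, adjusted p = 1.6e-08). HYOU1, the HSP110 of the ER, fell from 436 to 370 CPM (-0.24, adjusted p = 4.6e-06) and was at 0.02 once corrected for GC content and length. HSPA12A, a distant relative, was also called lower (-0.27, adjusted p = 0.0073), but not without control replicate 2 (-0.22) or under DESeq2 (-0.23).

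Of 17 nucleotide exchange factors and cochaperones, 7 rose, 6 fell and 4 did not pass the test (median 0.08). BAG3, a stress-inducible BAG protein that hands clients to autophagy, was at 36.5 and 39.2 CPM in the controls against 22.1 and 20.2 CPM in siAARS1 (-0.81, SE 0.0693, adjusted p = 9.7e-10, corrected -0.50). SIL1, the exchange factor of HSPA5, fell from 90.7 to 62.4 CPM (-0.53, adjusted p = 1.4e-09), and the ubiquitin ligase STUB1 from 163 to 136 CPM (-0.26, adjusted p = 1.1e-05). BAG4 (0.55), GRPEL2 (0.54), a mitochondrial exchange factor, and BAG5 (0.48) rose with adjusted p of 1.4e-07, 2.1e-07 and 1.7e-08. Corrected for GC content and length, STUB1 (0.14), BAG4 (-0.24), GRPEL2 (-0.29) and BAG5 (-0.07) changed sign, and SIL1 was at -0.19. BAG5 was then not called.

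Of 37 listed J-domain genes, 18 rose and 11 fell (median 0.12). DNAJC13, which acts in endosomal sorting, was at 6.129 and 7.501 CPM in the controls against 53.7 and 53.3 CPM in siAARS1 (2.81, SE 0.0851, adjusted p = 1.7e-17). DNAJC2, the ribosome-bound partner of HSPA14, was at 8.86 and 8.76 CPM in the controls against 58.0 and 56.6 CPM in siAARS1 (2.57, SE 0.0710, adjusted p = 3.8e-18). HSPA14 itself was 1.34-fold higher. After the GC content and length correction DNAJC13 was at 1.84 and DNAJC2 at 2.31. DNAJB14 (1.88, adjusted p = 2.9e-13, corrected 0.50) rose as well, while DNAJB5 (-0.98, adjusted p = 2.4e-08), DNAJB1 (-0.49, adjusted p = 6.2e-10, corrected -0.23) and HSCB (-0.40, adjusted p = 0.0037) fell. DNAJB1, the main stress-inducible J-domain partner of HSPA1A and HSPA8, was at 251 and 240 CPM in the controls against 180 and 170 CPM in siAARS1. HSCB, the partner of HSPA9 in iron-sulphur cluster assembly, was at 7.57 and 8.04 CPM in the controls against 6.06 and 5.26 CPM in siAARS1, and missed the threshold without siAARS1 replicate 2 (-0.32), under DESeq2 (-0.41) and after the correction (-0.22).

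Of 9 listed heat shock factors and regulators, 2 rose and 5 fell (median -0.12). HSF1, the factor that drives the inducible members, was nearly level at 58.4 and 58.2 CPM in the controls against 54.2 and 51.8 CPM in siAARS1. Its log2 fold change of -0.14 (SE 0.0516, adjusted p = 0.024) turned to 0.24 once corrected for GC content and length, and missed the threshold under edgeR with TMM and DESeq2 and without either control replicate or siAARS1 replicate 2 (-0.14 to -0.09). HSF2 rose from 12.9 to 22.6 CPM (0.77, adjusted p = 1.2e-07) and SIRT1, a deacetylase that acts on HSF1, from 11.5 to 27.3 CPM (1.17, adjusted p = 2.1e-11). IER5, a coactivator of HSF1, fell from 46.4 to 29.9 CPM (-0.62, adjusted p = 4.7e-09), and HDAC6 from 39.0 to 24.9 CPM (-0.63, adjusted p = 1.4e-08). The corrected values were 0.31 for HSF2, 0.49 for SIRT1, -0.46 for IER5 and -0.36 for HDAC6.

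Of the 20 heat-inducible chaperones and stress genes outside HSP70, 7 rose, 12 fell and 1 did not pass the test (median -0.19). HSP90AA1, the inducible cytosolic HSP90, was at 458 and 466 CPM in the controls against 2867 and 2963 CPM in siAARS1 (2.66, SE 0.0345, adjusted p = 4.9e-23). HSPD1, the mitochondrial chaperonin HSP60, rose from 581 to 1415 CPM (1.28, adjusted p = 2.0e-18) and CHORDC1, an HSP90 cochaperone, from 24.9 to 57.7 CPM (1.18, adjusted p = 1.4e-13). BAG3, the clusterin gene CLU (-0.69, adjusted p = 6.2e-10) and the collagen chaperone SERPINH1 (-0.55, adjusted p = 7.1e-12) fell furthest. After the GC content and length correction CHORDC1 was at -0.09 and no longer called, HSP90AA1 was at 2.55, HSPD1 at 1.16 and SERPINH1 at -0.25. Heat-inducible genes thus stood on both sides of control, as HSPH1 and HSPA6 did within the family. Of the 15 with a RefSeq window, 5 held a 3-unit heat shock site: HSP90AA1, HSPD1, CHORDC1 and HSP90AB1, which rose, and SERPINH1, which fell. Corrected, CHORDC1 drops out of the rises.

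Of 17 ER partners of HSPA5, 4 rose and 12 fell (median -0.23). HSP90B1, the HSP90 of the ER, was at 196 and 194 CPM in the controls against 550 and 579 CPM in siAARS1 (1.53, SE 0.0371, adjusted p = 5.0e-19), while HSPA5 itself was at 92.7% of control. DNAJC3 (0.92, adjusted p = 1.2e-10) and DNAJB9 (0.34, adjusted p = 0.0042), J-domain partners in the ER, rose. Corrected for GC content and length, they were at -0.03 and -0.12 and were not called. DNAJB9 was also not called under median scaling (0.12) or quantile normalization (0.11). SIL1, the transcription factor XBP1 (-0.52, adjusted p = 1.5e-10) and SDF2L1 (-0.43, adjusted p = 1.1e-07) fell. SDF2L1 was at -0.09 with no call once corrected, and XBP1 at -0.84. Of 14 mitochondrial partners of HSPA9, 6 rose, 5 fell and 3 did not pass the test (median 0.00). HSPD1 and its partner HSPE1, from 282 to 371 CPM (0.39, adjusted p = 4.7e-08), rose with HSPA9, while the matrix proteases CLPP (-0.42, adjusted p = 3.4e-08) and LONP1 (-0.20, adjusted p = 7.1e-05) fell. Corrected for GC content and length, CLPP was at -0.04 and not called, LONP1 was at 0.18 and HSPE1 at 0.62. The lists overlap, and several genes count in 2 or more of them.

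Corrected for GC content and length, the calls of the lists shifted, beside 32.7% of all genes called higher and 33.4% lower. Of the other HSP70 and HSP110 genes 1 was then called higher and 2 lower, of the exchange factors and cochaperones 7 and 8, and of the J-domain genes 13 and 10. The heat shock factors and regulators had 6 called higher and 3 lower, and the heat-inducible genes 8 and 9. Among ER partners of HSPA5 4 were called higher and 8 lower, and among mitochondrial partners of HSPA9 8 and 2.

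**Figure D5:**
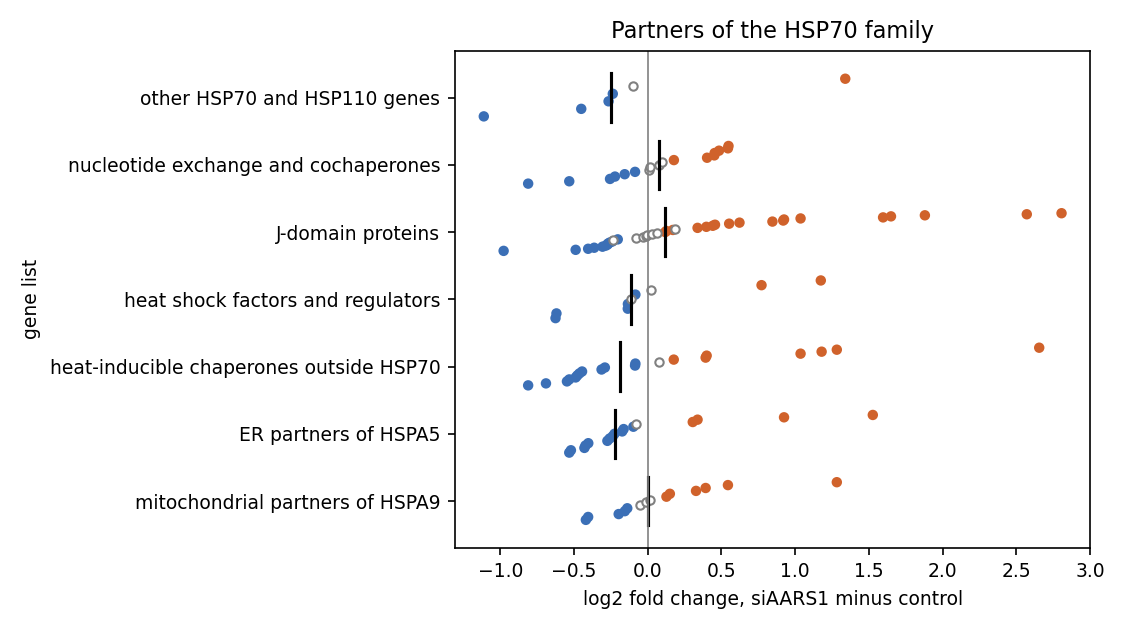
Log2 fold change (siAARS1 minus control, horizontal axis) of each tested gene in 7 lists of the HSP70 machinery (vertical axis), with orange for genes called higher, blue for genes called lower, open circles for genes that did not pass the test, and a black bar at the median. Each list spans both sides of 0, and medians run from -0.25 to 0.12.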

How the data were processed

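Total RNA of HGC27 cells was sequenced as 2 control and 2 siAARS1 libraries, grouped by the sample titles. The authors deposited 1 table of 14431 genes in CPM, a read count scaled to library size, without correction for gene length. RSEM 1.3.3 and hg38 are named in the submitters' processing notes; the aligner and the treatment of shared and antisense reads are not given in the sources used here. For 100% of values (tolerance 0.0006 CPM) the CPM were whole reads, and the 14199 genes averaging at least 1 CPM in either group were tested.

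The main test was limma 3.58.1 (R 4.3.3, trend, group only) on log2(CPM + 1), with Benjamini-Hochberg adjustment over all genes tested and a threshold of 0.05. This scale understates changes of low genes. SD are over 2 libraries per group. SE are from limma, which draws the variance of each gene toward a trend over all genes tested. They are therefore not the spread of 2 libraries alone. No source says that the libraries were separate cultures, and p-values set the group difference against this variance for these samples only. Replicates differed beyond sampling noise (chi-square per gene 3.63 in control and 3.62 in siAARS1). Alternatives were a pseudocount of 0.1, no filter, a threshold of 0.01, median and quantile scaling, the replicate number as a block, leaving out each library, edgeR 4.0.16 and DESeq2 1.42.0 on the recovered reads, and a GC content and length correction (mgcv 1.9.3, 97.3% of tested genes with an annotation). The fits were tested on simulated data.

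The members and lists were chosen with earlier results of these data known. The text names the 10 members, AARS1, from each list up to 3 rises and 3 falls called with the largest change and at least 5 CPM in the higher group, and the 5 genes nearest to HSPA6 in pattern; HSP90AB1 was named after its value was seen. GAPDH and ACTB were looked up as abundant genes and not used for scaling. Both were called lower in the main fit, with log2 fold changes of -0.13 and -0.20 (0.22 and 0.09 after the correction). Coordinates, lengths and exons are from GENCODE v29 on GRCh38, and upstream windows from RefSeq (GRCh38.p14), which may not be the annotation the authors used. A planned comparison of protein sequences was not made here.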

Additional observations from a re-analysis of the deposited data

How the results depend on the processing

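No member changed sign under any of the alternatives run, and all of these alternatives were planned. HSPA6 ranged from -2.74 (edgeR with library size only) to -2.10 (GC content and length correction). The number of members called lower was 4, and 2 under DESeq2, where HSPA1A (-1.26) and HSPA5 (-0.057) missed the threshold. HSPA5 also missed it under quantile normalization (-0.057) and edgeR with TMM (-0.071). The GC content and length correction turned DNAJC3 (-0.027), CHORDC1 (-0.094), DNAJB9 (-0.12), BAG4 (-0.24), GRPEL2 (-0.29), BAG5 (-0.074), STUB1 (0.14), HYOU1 (0.021), HSF1 (0.24) and LONP1 (0.18) to the other side of 0, with the same values when a replicate block was added. Of these genes, DNAJC3, CHORDC1, DNAJB9, BAG5 and HYOU1 were no longer called after the correction. The cause of the sign changes was not tested. Over the table, genes called ranged from 8355 to 11479 (main 10032). The share of called genes that were higher was 46.2%, 50.3% under edgeR with TMM, 53.8% under DESeq2, 37.0% under quantile normalization and 28.8% under median scaling, which moved the median of all genes from -0.05 to -0.27. Leaving out 1 library gave log2 fold changes of -2.46 to -2.38 for HSPA6, -1.58 to -0.65 for HSPA1A, -0.63 to -0.59 for HSPA1B, 2.12 to 2.22 for HSPH1 and 2.07 to 2.28 for HSPA4L, and 8908 to 9283 genes called.

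With the replicate number as a block, 10389 genes were called and no call of a member changed. No label says that the numbers pair libraries, though same-numbered libraries carry consecutive library codes in the descriptions. The deviations of same-numbered libraries correlated at 0.118. With 2 libraries per group, no gene has a replicate check beyond its pair, and HSPA1A rested on 47 to 217 reads.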
